A study of Mus musculus with 5 samples.

Results

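The genes described here are 37 named markers of macrophages and other myeloid cells, read across wild-type mouse uvea and eye tumors with targeted Lats1 and Lats2 alleles. They were taken by name: 36 were found under the listed symbol, and Spi1 under its older symbol Sfpi1, among 23141 named loci. Uvea is the pigmented coat of the eye that comprises choroid, ciliary body and iris. The control group, 2 libraries, was uvea of wild-type adults. The tumor group was eye tumor tissue of adult mice of the genotype AAV5-Cre;Lats1/2 fl/fl (3 libraries), in which an injected adeno-associated virus of serotype 5 delivered Cre recombinase to floxed Lats1 and Lats2 alleles. The labels name no promoter for Cre, give the wild-type mice no virus and do not say whether a library held RNA of 1 animal or of several. Separate animals are not stated either, and p-values therefore describe the spread among these 5 samples only, which may be technical.

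Macrophages are tissue-resident or blood-derived phagocytes that take up dying cells, microbes and debris. The transcription factor PU.1, encoded by Spi1, and signalling through the receptor of colony-stimulating factor 1 set and maintain their identity. In the eye they populate the uvea, while microglia, their relatives in nervous tissue, populate the retina. Macrophages also enter most solid tumors, where some keep markers of resident cells and others carry genes of inflammation or of lipid handling.

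Each library held between 12687703 and 14368272 estimated fragments. Levels are given in FPKM (fragments per length of transcript and per depth), and log2 fold changes are of tumor over wild type with their standard error (SE). The targeted kinase gene Lats1 stood at 7.55 and 8.86 FPKM in wild-type libraries 1 and 2, against 3.43, 3.90 and 2.94 FPKM in tumor libraries 1, 2 and 3, and it fell by 1.21 on the log2 scale (SE 0.18, adjusted p = 0.012). Lats2 stood at 20 and 20.2 FPKM in the control libraries, against 12.6, 17.0 and 14.3 FPKM in the tumors and did not pass the test (adjusted p = 0.058). Transcripts of retinal cells were present in the wild-type tissue: the rod gene Sag stood at 149 and 155 FPKM there, against 0.743, 1.46 and 1.51 FPKM in the tumors. The tumors stood apart from one another, with summed skeletal muscle markers at 8280 FPKM in tumor library 1 against 474 and 504 FPKM in libraries 2 and 3 and 614 and 585 FPKM in wild type.

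Most of the 37 genes were higher in the tumors. Of the 36 with enough fragments to be tested, 25 rose (69.4%), 1 fell and 10 did not pass, against a background of 18.7% of all 15241 tested loci that rose, 15.4% that fell and 34.1% that did either. The scavenger receptor gene Marco had too few fragments for the test. Rising members had log2 fold changes from 2.23 (Trem2) to 5.24 (Msr1), and the gene that fell was Gpnmb. The median log2 fold change of the tested members was 3.41, beside 0.05 over all tested loci. In FPKM, all 3 tumor libraries lay above both wild-type libraries for 30 of the 36 tested members, against 33.7% of all tested loci. With DESeq2 in place of edgeR, 29 members rose, against 24.2% of all tested loci, and the 4 added were Csf1r, Cd68, Nos2 and Clec4e. With either wild-type library left out, edgeR called no locus at all. Those fits leave a single wild-type library, which has no spread of its own, so only effect sizes are given for them. All 25 rising members kept a positive log2 fold change in edgeR. The values ran from 2.15 (Trem2) to 4.84 (Msr1) without wild-type library 1. Without wild-type library 2 they ran from 2.1 (Csf2ra) to 7.52 (Trem1, which had 0 fragments in library 1). RNA was taken from whole tissue, in which more or fewer cells of a type and more or less RNA per cell cannot be told apart.

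**Figure D1:**
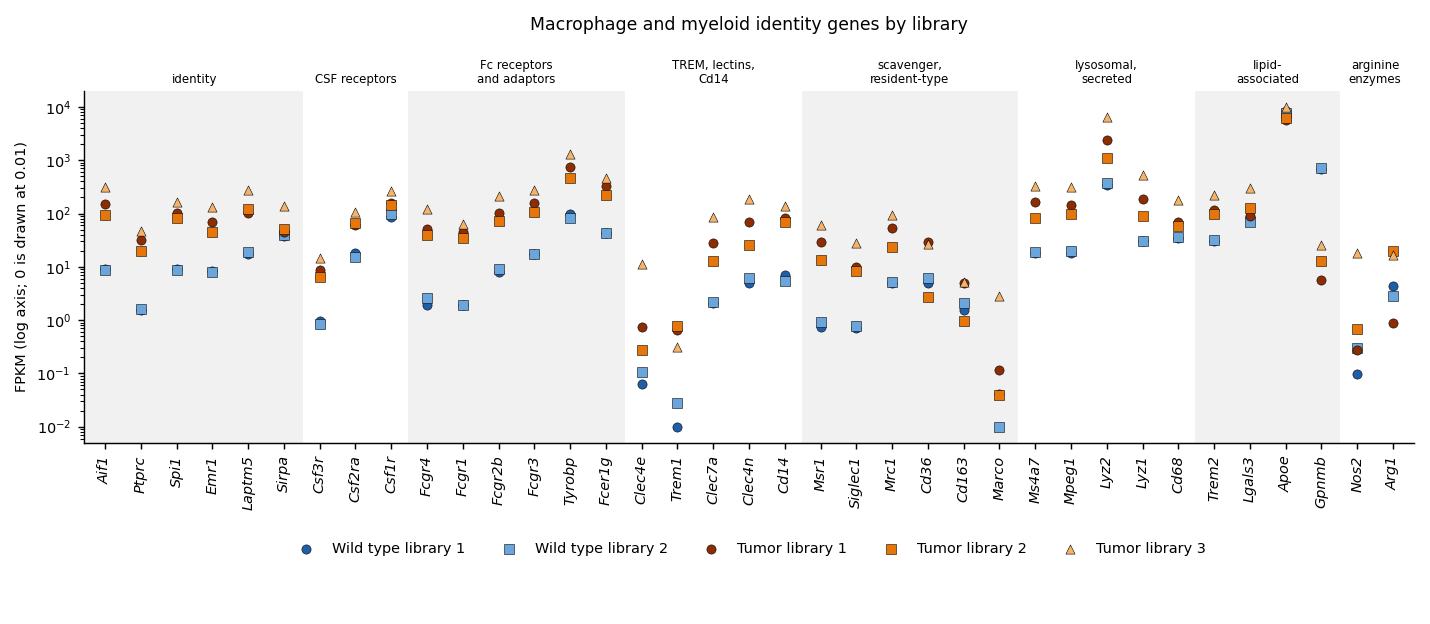
FPKM of each of the 37 genes (log axis, 0 drawn at 0.01) in the 2 wild-type and 3 tumor libraries, 1 point per library, in blocks by role. Tumor points lie above the wild-type points for 30 tested genes, and tumor library 3 is the highest tumor for 34 of the 37.

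The libraries kept an order across the members. Tumor library 3 was the highest of the tumors for 34 of the 37 genes and for 24 of the 25 that rose, and tumor library 2 was the lowest for 28 and for 22. Among the rising genes the highest tumor library exceeded the lowest by 1.76 to 7.12 times (median 2.88 times). The wild-type libraries differed by a median of 1.09 times over the 35 members above 0 in both.

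Genes that mark leukocytes and the macrophage lineage as such rose at 5 of 6. Ptprc, which encodes the leukocyte phosphatase CD45, stood at 1.58 and 1.61 FPKM in the control libraries, against 32.2, 20 and 47.2 FPKM in tumor libraries 1, 2 and 3. Spi1, the gene of PU.1, stood at 9.24 and 8.87 FPKM in the control libraries, against 103, 83.7 and 165 FPKM in the tumors. Each tumor library was therefore far above both wild-type libraries for the pan-leukocyte and the lineage gene, with library 2 the lowest and library 3 the highest. On the log2 scale the rise of Ptprc was 4.41 (SE 0.46, adjusted p = 0.0068) and that of Spi1 3.75 (SE 0.38, adjusted p = 0.0062).

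Emr1, the gene of the classical mouse macrophage antigen F4/80, stood at 8.47 and 7.90 FPKM in the control libraries, against 69.6, 44.1 and 135 FPKM in the tumors. Aif1, which encodes the microglia and macrophage protein IBA1, stood at 8.99 and 8.53 FPKM in the control libraries, against 149, 93.0 and 320 FPKM in the tumors. The groups did not overlap for either gene, and both rose, Emr1 by 3.40 (SE 0.57, adjusted p = 0.015) and Aif1 by 4.49 (SE 0.66, adjusted p = 0.012). Laptm5, a lysosomal membrane protein gene of blood cells, stood at 17.1 and 18.7 FPKM in the control libraries, against 104, 124 and 280 FPKM in the tumors. It rose by 3.29 (SE 0.55, adjusted p = 0.015). Sirpa encodes the receptor for the "do not eat me" ligand CD47 and is also made by neurons. It stood at 38.6 and 39.8 FPKM in the control libraries, against 44.8, 51.0 and 141 FPKM in the tumors, with library 3 well above the rest, and it did not pass (log2 fold change 1.05, SE 0.59, adjusted p = 0.22).

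The receptors for colony-stimulating factors differed in size of change. Csf1r, the receptor for the macrophage growth factor CSF1, stood at 86.1 and 96.5 FPKM in the control libraries, against 158, 142 and 265 FPKM in the tumors. All tumor libraries were above both wild-type libraries, but at a log2 fold change of 1.03 with SE 0.34 the gene missed the threshold in edgeR (adjusted p = 0.073). It passed with DESeq2 (1.00, adjusted p = 0.017), and over the alternatives tried its adjusted p ran from 0.017 to 0.34. The Csf1r locus in the files is joined with that of Hmgxb3, a gene on the opposite strand that stood at 9.26 and 8.99 FPKM in the control libraries, against 4.43, 6.90 and 6.6 FPKM in the tumors.

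Csf2ra, the ligand-binding chain of the GM-CSF receptor, stood at 18 and 15.1 FPKM in the control libraries, against 60.6, 66.3 and 106 FPKM in the tumors, and it rose by 2.29 (SE 0.31, adjusted p = 0.0099). Csf3r, the G-CSF receptor gene of neutrophils and monocytes, stood at 0.976 and 0.832 FPKM in the control libraries, against 8.83, 6.46 and 14.5 FPKM in the tumors, and it rose by 3.55 (SE 0.45, adjusted p = 0.0088). For both genes the lowest tumor library exceeded the higher wild-type library by several times. Of the ligands and shared chains of these receptors, 3 of 4 tested loci rose. Csf1 itself stood at 10.6 and 11.5 FPKM in the control libraries, against 66.2, 86.8 and 154 FPKM in the tumors (log2 fold change 3.37, SE 0.47, adjusted p = 0.011), and the shared receptor chain Csf2rb2 rose by 4.51 (SE 0.82, adjusted p = 0.018). Transcripts of Csf2rb2 and Csf2rb share stretches of 50 bases, 18.4% of those in Csf2rb2, so reads may be split between them. The other CSF1R ligand, Il34, stood at 8.57 and 9.74 FPKM in the control libraries, against 39.4, 63.9 and 12.7 FPKM in the tumors, lowest in library 3, and did not pass (adjusted p = 0.069). Csf2 and Csf3 had at most 5 and 16 fragments in any library and were not tested.

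All 6 Fc receptor and adaptor genes rose. Fc receptors bind the constant part of antibodies; Fcer1g and Tyrobp encode the membrane adaptors that carry activating signals from such receptors and from TREM proteins. Fcgr1, the high-affinity receptor gene (chromosome 3, 96282909 to 96293969), stood at 1.90 and 1.88 FPKM in the control libraries, against 45.9, 34 and 64.3 FPKM in the tumors. Fcgr4, an activating receptor gene, stood at 1.92 and 2.61 FPKM in the control libraries, against 50.6, 39.6 and 123 FPKM in the tumors. The fitted log2 fold changes were 4.71 for Fcgr1, which is 26.2-fold (SE 0.37, adjusted p = 0.0045), and 5.01 for Fcgr4, which is 32.2-fold (SE 0.69, adjusted p = 0.01).

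The inhibitory receptor gene Fcgr2b stood at 8.12 and 8.96 FPKM in the control libraries, against 103, 73.2 and 211 FPKM in the tumors. Fcgr3, an activating receptor gene, stood at 17.5 and 17.3 FPKM in the control libraries, against 161, 109 and 273 FPKM in the tumors. The inhibitory and the activating gene thus both rose, Fcgr2b by 3.85 (SE 0.54, adjusted p = 0.011) and Fcgr3 by 3.43 (SE 0.47, adjusted p = 0.01). Fcgr2b, Fcgr4, Fcgr3 and Fcer1g are neighbours on chromosome 1 between 170959722 and 171234349. Fcgr3 and Fcgr2b transcripts share 9.58% of the 50-base stretches of Fcgr3, so some of their reads may be split, while Fcgr4 and Fcgr3 share none.

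The adaptor gene Fcer1g stood at 43.8 and 42.9 FPKM in the control libraries, against 324, 226 and 464 FPKM in the tumors, and rose by 3.01 (SE 0.37, adjusted p = 0.0083). Tyrobp, the gene of the adaptor DAP12, stood at 96.1 and 83.0 FPKM in the control libraries, against 751, 455 and 1310 FPKM in the tumors, and rose by 3.27 (SE 0.54, adjusted p = 0.015). Both adaptors already had over 40 FPKM in wild type, and both kept the order of library 3 over 1 over 2. Fcer1g is also made by mast cells, whose part in the Fcer1g values was not tested. Of the mast cell markers, 0 of 6 tested loci passed in edgeR, 0 had an unadjusted p under 0.05 and 0 passed in DESeq2. The kinases, phosphatases and scaffolds that act downstream of such receptors rose at 11 of 12 loci (median log2 fold change 3.35). Fyb, a scaffold gene of hematopoietic cells, rose by 4.31 (SE 0.37, adjusted p = 0.0051). The locus that did not pass was the B cell linker gene Blnk, at 11.7 and 9.84 FPKM in wild type and 11, 11 and 15.3 FPKM in the tumors.

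PU.1 binds purine-rich DNA, and the letters GAGGAA, called the PU box, are the core of many of its sites. Promoter windows from RefSeq (GRCm38.p6, 250 bases before to 50 after a start) were at hand for 26 of the 37 members. The PU box, on either strand, stood in the window of 17 of these 26 and of 13 of the 18 that rose. Rising members with a window but no box were Fcgr2b, Fcer1g, Lyz1, Lyz2 and Mpeg1. Cd68, Clec4e and Apoe, which did not pass, and the untested Marco held a box. Over all genes with a window the share was 31.3%, and over all windows 28.3%. The E-box CATGTG (either strand; it reads CACATG on the other), 1 of the letter strings bound by the MITF family of pigment cell and macrophage factors, stood in windows of 4 members, against 15.9% of all genes. A match describes letters, not a bound site.

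Printed below are 150 bases of promoter, 5′ to 3′, of 3 members that rose by a log2 fold change above 4, of Trem2 as the lipid-associated gene that rose, and of Gpnmb as the member that fell. Capitals mark the PU box read on its opposite strand (TTCCTC). The stretches lie at chr3:96293920-96294069 (minus strand, Fcgr1), chr1:171018826-171018975 (plus, Fcgr4), chr17:35176003-35176152 (minus, Aif1), chr17:48346301-48346450 (plus, Trem2) and chr6:49036418-49036567 (plus, Gpnmb).
Fcgr1: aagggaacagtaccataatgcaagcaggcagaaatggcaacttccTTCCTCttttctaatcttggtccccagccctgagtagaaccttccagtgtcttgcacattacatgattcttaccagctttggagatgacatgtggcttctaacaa
Fcgr4: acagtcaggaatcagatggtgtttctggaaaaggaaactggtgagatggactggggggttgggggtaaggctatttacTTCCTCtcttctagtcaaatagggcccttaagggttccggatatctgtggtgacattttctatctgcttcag
Aif1: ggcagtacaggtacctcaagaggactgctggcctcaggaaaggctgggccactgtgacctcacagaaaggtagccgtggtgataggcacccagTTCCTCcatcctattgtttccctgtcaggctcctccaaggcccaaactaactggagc
Trem2: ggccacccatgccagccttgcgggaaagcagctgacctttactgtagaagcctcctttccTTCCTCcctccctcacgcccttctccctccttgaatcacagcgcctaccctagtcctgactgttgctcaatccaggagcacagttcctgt
Gpnmb: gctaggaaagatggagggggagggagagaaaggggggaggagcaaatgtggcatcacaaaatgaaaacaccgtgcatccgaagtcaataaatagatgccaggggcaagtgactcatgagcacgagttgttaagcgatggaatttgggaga
In the windows printed with a box, it began 55 bases before the start in Fcgr1, 22 in Fcgr4, 7 in Aif1 and 40 in Trem2. The full window of Gpnmb held neither string.

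Receptors for microbial patterns and damaged cells rose at 4 of 5. Cd14, the lipopolysaccharide co-receptor, stood at 7.09 and 5.41 FPKM in the control libraries, against 83.9, 68.5 and 139 FPKM in the tumors, and rose by 4.0 (SE 0.42, adjusted p = 0.0068). Clec4n, the gene of the fungal receptor dectin-2, stood at 5.02 and 6.25 FPKM in the control libraries, against 68.8, 26 and 185 FPKM in the tumors. Clec7a, the gene of dectin-1, stood at 2.11 and 2.2 FPKM in the control libraries, against 27.4, 12.8 and 86.0 FPKM in the tumors. Both lectins had the widest tumor spread among rising members, 7.12 and 6.74 times from lowest to highest, yet no tumor library reached down to wild type. Clec4n rose by 4.09 (SE 0.97, adjusted p = 0.033) and Clec7a by 4.33 (SE 1.00, adjusted p = 0.031), and without tumor library 1 neither passed (4.27 with adjusted p = 0.061, and 4.57 with adjusted p = 0.054).

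Trem1, an amplifier of inflammation on neutrophils and monocytes, had 0 and 1 fragments in wild type and 26, 31 and 12 in the tumors. It was the one rising member that was highest in tumor library 2 and lowest in library 3. Per fragment sequenced, the pooled tumors exceeded wild type 45.2 times, with a 95% interval of 7.84 to 1810 that covers counting error only. Its edgeR test passed (log2 fold change 5.15, SE 1.05, adjusted p = 0.023), but it did not pass in DESeq2 without wild-type library 1 (adjusted p = 0.1), with the table's numbers as a block (0.053) or with limma on log2(FPKM + 1) and no filter (0.069). Of the neutrophil markers, 5 of 9 had too few fragments for the test, Elane was at 0 in all libraries, Mpo had 1 fragment in all, S100a8 rose by 2.14 (SE 0.48, adjusted p = 0.03) and Camp fell by 3.56 (SE 0.64, adjusted p = 0.018). The part of neutrophils in Trem1 and Csf3r was not tested. Clec4e, the gene of the receptor Mincle, had 2 and 3 fragments in wild type and 24, 9 and 348 in the tumors. Tumor library 3 carried most of that signal, and Clec4e did not pass in edgeR (5.59, SE 2.15, adjusted p = 0.1) but did with DESeq2 (5.62, adjusted p = 0.0025).

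**Figure D2:**
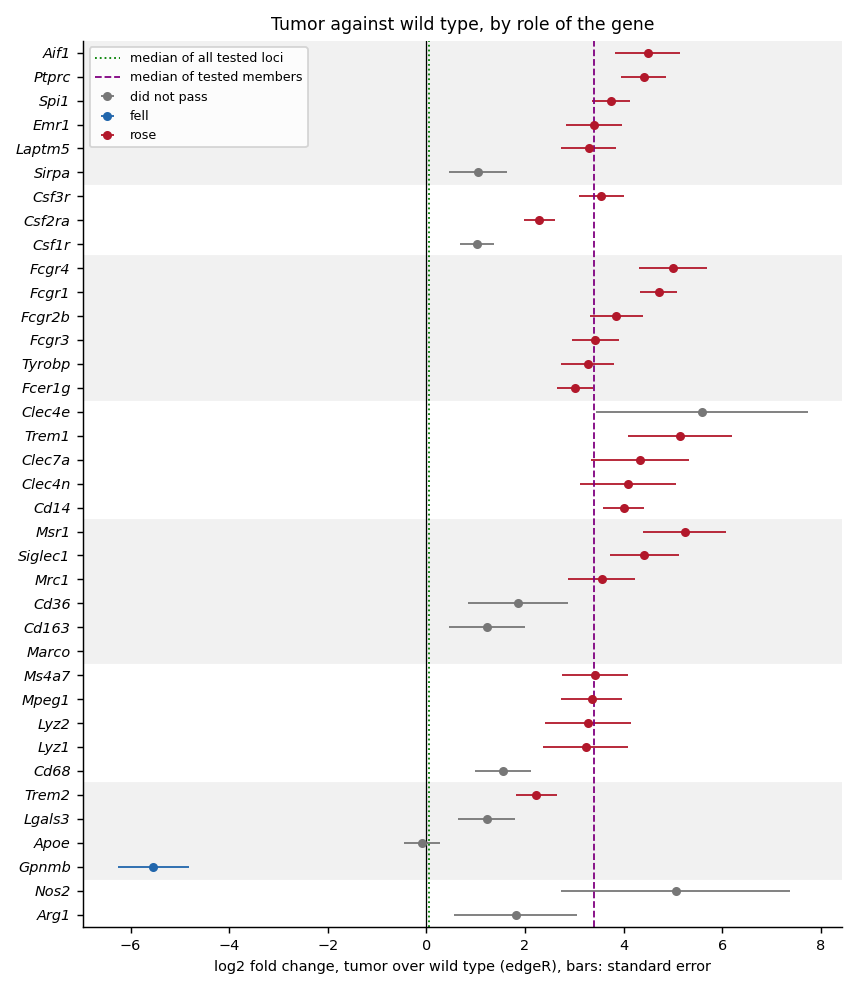
Log2 fold change of tumor over wild type (edgeR, bars are standard errors) for the 36 tested genes in blocks by role, coloured by outcome of the test, with vertical lines at the median of all tested loci (0.05) and of the tested members (3.41). The 25 rising genes lie between 2.23 and 5.24, Gpnmb lies alone at −5.54, and the widest bars belong to Nos2, Clec4e and Arg1.

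Scavenger and resident-type receptors were mixed, with 3 of 6 rising. Msr1, which encodes the scavenger receptor for modified lipoproteins, stood at 0.749 and 0.911 FPKM in the control libraries, against 29.0, 13.5 and 61.3 FPKM in the tumors. It rose by a fitted log2 fold change of 5.24, which is 37.8-fold (SE 0.84, adjusted p = 0.014). The deposited Msr1 locus is far longer than the annotated gene, so its value may hold fragments of other sequence in it. Siglec1, the sialic acid receptor of resident and interferon-exposed macrophages, stood at 0.711 and 0.766 FPKM in the control libraries, against 10.1, 8.28 and 27.4 FPKM in the tumors, and rose by 4.42 (SE 0.70, adjusted p = 0.014).

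Mrc1, the mannose receptor gene (chromosome 2, 14229414 to 14332023) and a marker of resident and alternatively activated macrophages, stood at 4.94 and 5.14 FPKM in the control libraries, against 54.1, 23.8 and 95 FPKM in the tumors. It rose by 3.56 (SE 0.68, adjusted p = 0.02), and every tumor library exceeded both wild-type libraries. With limma on log2(FPKM + 1) and no filter it did not pass (adjusted p = 0.055). Cd163, the hemoglobin scavenger receptor gene (chromosome 6, 124304651 to 124330583) and the other resident-type marker, stood at 1.52 and 2.11 FPKM in the control libraries, against 4.93, 0.944 and 5.20 FPKM in the tumors. Tumor library 2 lay below both wild-type libraries, so the groups overlapped, and Cd163 did not pass (1.23, SE 0.78, adjusted p = 0.27). Without tumor library 2 it passed at 1.65 (adjusted p = 0.015).

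Cd36, a fatty acid and lipoprotein receptor gene of macrophages, capillaries and fat cells, followed the same library. It stood at 4.92 and 6.20 FPKM in the control libraries, against 29.5, 2.75 and 26.4 FPKM in the tumors. Tumor library 2 was again below wild type. At a log2 fold change of 1.86 with SE 1.02 the gene missed the threshold (adjusted p = 0.21), and without tumor library 2 it passed at 2.34 (adjusted p = 0.0059). Markers of fat cells and capillaries rose at 1 of 6 tested loci (Gpihbp1, 2.49, SE 0.37, adjusted p = 0.012), and their summed level was 117 and 113 FPKM in wild type and 140, 93.8 and 78.1 FPKM in the tumors. Within the list, Adipoq was at 1.23, 0 and 1.53 FPKM in the tumors, lowest in library 2 like Cd36. The capillary gene Gpihbp1, at 20.7, 12.6 and 20.2 FPKM, was also lowest in library 2. The endothelial genes Kdr, at 7.19, 14.2 and 6.33 FPKM, and Cldn5, at 44.1, 31.2 and 14.3 FPKM, were lowest in library 3, as was the summed level. The part of fat cells and capillaries in the Cd36 values was not tested. Marco had 1 and 0 fragments in wild type and 3, 1 and 67 in the tumors. Nearly all of its fragments came from tumor library 3.

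Lysosomal and secreted effector genes rose at 4 of 5. Lyz2, the lysozyme gene of macrophages and neutrophils, stood at 338 and 367 FPKM in the control libraries, against 2390, 1090 and 6470 FPKM in the tumors. Its neighbour Lyz1 on chromosome 10 stood at 29.9 and 30.1 FPKM in the control libraries, against 188, 90.1 and 540 FPKM in the tumors. For both genes tumor library 3 was about 6 times tumor library 2, and the log2 fold changes of 3.28 (SE 0.88, adjusted p = 0.044) and 3.23 (SE 0.87, adjusted p = 0.045) passed narrowly. Without tumor library 1 neither passed (3.47 with adjusted p = 0.073, and 3.44 with adjusted p = 0.072). Lyz1 stood at 8.83% and 8.19% of the Lyz2 level in wild type and at 7.85%, 8.23% and 8.35% in the tumors. The transcripts share 16.1% of the 50-base stretches of Lyz1, so a split of Lyz2 reads between them may set part of the Lyz1 values, and this was not tested.

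Mpeg1, which encodes the pore-forming protein perforin-2, stood at 17.9 and 19.5 FPKM in the control libraries, against 146, 97.6 and 312 FPKM in the tumors. Ms4a7, a tetraspan membrane protein gene of macrophages, stood at 18.1 and 19.0 FPKM in the control libraries, against 165, 80.7 and 323 FPKM in the tumors. Both rose, Mpeg1 by 3.35 (SE 0.61, adjusted p = 0.018) and Ms4a7 by 3.42 (SE 0.67, adjusted p = 0.022), with the same order of tumor libraries, and Ms4a7 did not pass with limma on log2(FPKM + 1) and no filter (adjusted p = 0.057). Cd68, a lysosomal membrane protein gene used as a general macrophage marker, stood at 34.3 and 36.9 FPKM in the control libraries, against 68.1, 59.1 and 181 FPKM in the tumors. The groups did not overlap, but library 3 stood apart and at a log2 fold change of 1.55 with SE 0.57 the gene missed the threshold (adjusted p = 0.091). Without tumor library 3 it passed at 0.86 (adjusted p = 0.018), and with DESeq2 at 1.52 (adjusted p = 0.024).

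The lipid-associated genes went separate ways. Trem2, a lipid-sensing receptor gene (chromosome 17, 48346401 to 48352290) whose promoter stretch is printed above, stood at 31.1 and 32.3 FPKM in the control libraries, against 117, 98.2 and 218 FPKM in the tumors. It rose by 2.23 (SE 0.41, adjusted p = 0.019), the smallest rise among the members that passed. Lgals3, the gene of galectin-3, stood at 84.4 and 69.3 FPKM in the control libraries, against 88.1, 128 and 303 FPKM in the tumors. Its lowest tumor library was barely above wild type, and it did not pass (1.22, SE 0.58, adjusted p = 0.16). Apoe, the apolipoprotein E gene, stood at 8400 and 7580 FPKM in the control libraries, against 5810, 6080 and 9870 FPKM in the tumors. The groups overlapped, and its log2 fold change was −0.09 (SE 0.36, adjusted p = 0.86).

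Gpnmb, a membrane glycoprotein gene of melanosomes as well as of lipid-laden macrophages (chromosome 6, 49036452 to 49065265), stood at 695 and 714 FPKM in the control libraries, against 5.57, 12.6 and 25.9 FPKM in the tumors. Its mean was 704 ± 13.4 FPKM (SD, n = 2) in wild type and 14.7 ± 10.3 FPKM (SD, n = 3) in the tumors. It fell by 5.54 on the log2 scale, a fitted fold of 46.4 (SE 0.72, adjusted p = 0.0093). Within the tumors its order was library 3 over 2 over 1. Pigment cell markers moved with it: all 8 fell, with summed levels of 6760 and 6540 FPKM in wild type and 12, 27.8 and 4.36 FPKM in the tumors. Pmel, the melanosome fibril gene, fell by 9.77 (SE 0.54, adjusted p = 0.0029) and the melanocyte antigen gene Mlana fell by 8.74 (SE 0.71, adjusted p = 0.0048). Of the retinal pigment epithelium markers 5 of 6 fell, with Stra6 at −7.29 (SE 0.47, adjusted p = 0.0034) and Lrat at −9.28 (SE 0.97, adjusted p = 0.0067). Their part in the Gpnmb value was not tested. Tumor library 3, the highest of the tumors for Gpnmb, was the lowest of the tumors for the pigment markers.

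The enzymes that compete for arginine, Arg1 and Nos2, were uneven among the tumors. Arg1, the arginase of alternatively activated macrophages (chromosome 10, 24915207 to 24930590), stood at 4.40 and 2.88 FPKM in the control libraries, against 0.885, 19.8 and 16.5 FPKM in the tumors. Nos2, the inducible nitric oxide synthase of inflammatory macrophages (chromosome 11, 78920859 to 78960124), stood at 0.0982 and 0.296 FPKM in the control libraries, against 0.278, 0.677 and 18.2 FPKM in the tumors. Tumor library 1 was thus low in both, tumor library 2 high in Arg1 alone, and tumor library 3 high in both. Neither passed in edgeR, with log2 fold changes of 1.81 (SE 1.24, adjusted p = 0.3) for Arg1 and 5.06 (SE 2.32, adjusted p = 0.15) for Nos2. Without tumor library 1, Arg1 passed at 2.36 (adjusted p = 0.022), and DESeq2 called Nos2 at 5.03 (adjusted p = 0.0068).

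**Figure D3:**
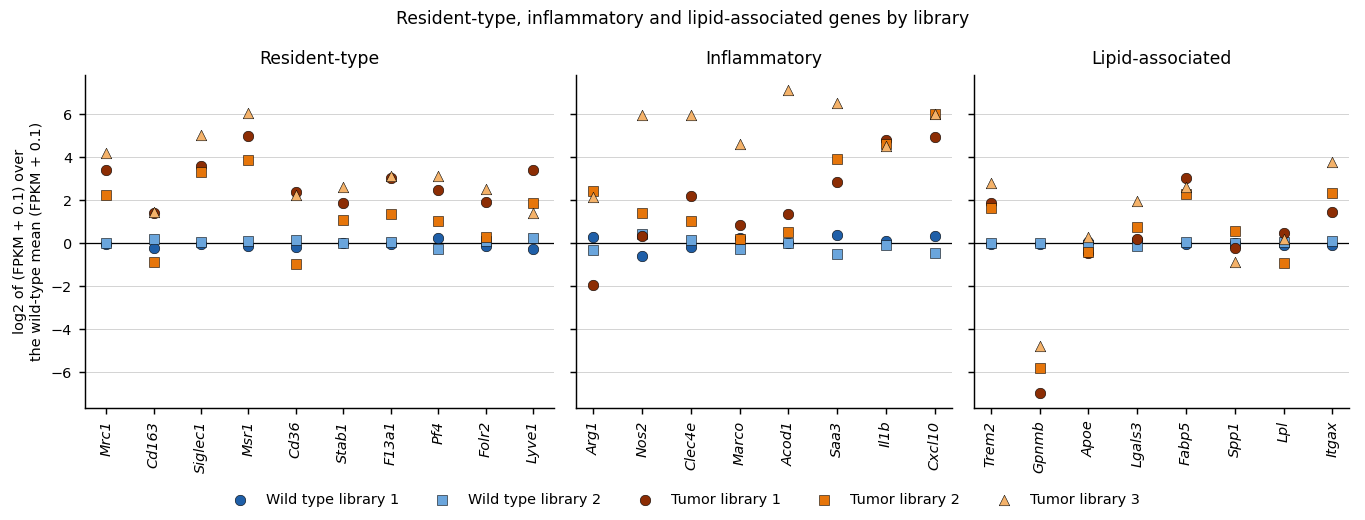
Resident-type, inflammatory and lipid-associated genes, each library's log2 of (FPKM + 0.1) over the wild-type mean (FPKM + 0.1), 1 point per library, with 0 as the wild-type mean. Tumor library 2 is lowest for Cd163 and Cd36, Nos2 and Acod1 are high in tumor library 3 alone, and Gpnmb lies below 0 in every tumor library. Genes beyond the 37 were picked from the lists for this plot with their values known. List genes left out include Cd63, which fell, and Il6 and Ccl4, which rose. Cbr2, Cd209f, Il12b and Lipa, also left out, had log2 fold changes below 0 and did not pass. Marco and Arg1 are drawn with the inflammatory genes, although the text places Marco with the scavenger receptors and Arg1 with alternative activation.

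Ratios within a library show whether resident-type, inflammatory and lipid-associated genes moved in proportion to one another. They were taken as the log2 of (FPKM + 0.1) of a gene minus that of Csf1r, for 7 genes. With 2 against 3 libraries the smallest two-sided p of the exact permutation test is 0.2, so no ratio can pass. The Mrc1 ratio was −4.10 and −4.20 in wild type and −1.55, −2.57 and −1.48 in the tumors, 2.28 higher (exact permutation p = 0.2, adjusted p = 0.35). For Trem2 the ratio was −1.47 and −1.57 in wild type and −0.43, −0.53 and −0.29 in the tumors, 1.11 higher (exact permutation p = 0.2, adjusted p = 0.35). Both genes had more RNA per Csf1r RNA in each tumor library than in either wild-type library.

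For Cd163 the ratio to Csf1r was −5.74 and −5.45 in wild type and −4.97, −7.09 and −5.65 in the tumors, a difference of −0.31 (exact permutation p = 1). For Arg1 it was −4.26 and −5.02 in wild type and −7.33, −2.83 and −4.0 in the tumors, a difference of −0.08 (exact permutation p = 1). These groups overlapped, with Cd163 lowest in tumor library 2 and Arg1 lowest in tumor library 1. The Gpnmb ratio was 3.01 and 2.89 in wild type and −4.80, −3.48 and −3.35 in the tumors (exact permutation p = 0.2, adjusted p = 0.35). That of Ptprc was 3.22 higher in the tumors and that of Nos2 1.65 higher (exact permutation p = 0.2 and 0.4). The choice of the reference gene set the direction for some: relative to Ptprc in place of Csf1r, Mrc1 was at −0.93, Trem2 at −2.11 and Nos2 at −1.56 in tumors minus wild type. Gpnmb was lower in the tumors with either reference, at −10.05 relative to Ptprc. Cd163 and Arg1 were at −3.53 and −3.30 relative to Ptprc. Relative to Csf1r they had no stable direction, with leave-outs from −0.77 to 0.28 for Cd163 and from −1.03 to 1.22 for Arg1.

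Further genes of these macrophage states, outside the 37, were also uneven. Over all tested loci, 18.7% rose in edgeR and 24.2% in DESeq2. Of 11 tested resident macrophage markers 3 rose (median log2 fold change 2.48): Stab1 by 2.03 (SE 0.51, adjusted p = 0.037), F13a1 by 2.78 (SE 0.61, adjusted p = 0.028) and Pf4 by 2.48 (SE 0.68, adjusted p = 0.046). F13a1, the coagulation factor XIII A chain gene, stood at 2.94 and 3.14 FPKM in the control libraries, against 25.2, 7.99 and 27.3 FPKM in the tumors, lowest in library 2 as Cd163, Cd36 and Mrc1 were. Without tumor library 2, 7 of these resident markers rose and 1 fell, and without tumor library 1 a single one rose. With DESeq2, 8 of the 11 rose. Of 12 other lipid-associated genes, Fabp5 rose (2.72, SE 0.29, adjusted p = 0.007) and Cd63 fell (−0.87, SE 0.19, adjusted p = 0.026), and the median was 0.56. Without any 1 of the tumor libraries, 3 of these 12 rose, and with DESeq2 5 did.

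Of 10 tested inflammatory macrophage genes 5 rose (median 3.55), and with DESeq2 8 did. Among the 5, Il1b rose by 4.85 (SE 0.27, adjusted p = 0.0029) and Cxcl10 by 5.82 (SE 0.55, adjusted p = 0.0056). Il1b, the interleukin 1 beta gene, stood at 0.730 and 0.644 FPKM in the control libraries, against 21.4, 18.9 and 17.8 FPKM in the tumors. That was an even level across the tumors, unlike Nos2. Acod1, which encodes the itaconate-making enzyme of activated macrophages, had 1 fragment in each wild-type library and 8, 3 and 587 in the tumors, and was singled out with its values known. Its order matched that of Clec4e and Marco, each with most of its signal in tumor library 3. Of 7 tested genes of alternative activation 4 rose (median 3.10), with the interleukin 4 receptor gene Il4ra at 3.10 (SE 0.44, adjusted p = 0.011) and Egr2 at 3.20 (SE 0.63, adjusted p = 0.021). Retnla, of the same list, was lower in every tumor library than in either wild-type library. It had 55 and 42 fragments in wild type and 7, 0 and 14 in tumor libraries 1, 2 and 3. It did not pass (−2.8, SE 1.18, adjusted p = 0.12). Without tumor library 2, 1 gene of this list fell.

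Of 12 myeloid transcription factors beside Spi1, 10 rose and 1 fell (median 2.21). Irf8 rose by 3.62 (SE 0.39, adjusted p = 0.007) and Runx1 by 2.88 (SE 0.38, adjusted p = 0.0095), while Bhlhe40 fell by 1.48 (SE 0.27, adjusted p = 0.018). Irf8, a partner of PU.1 in monocytes and microglia, stood at 4.99 and 5.02 FPKM in the control libraries, against 47.2, 45.3 and 85.6 FPKM in the tumors.

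Among markers of neighbouring cell types, those of microglia and monocytes mostly rose, as the members did. Mast cell markers, of which 0 passed in edgeR, and neutrophil markers, of which 1 rose and 1 fell, did not. Microglia markers rose at 7 of 8 tested loci (median 2.84), with a summed level of 155 and 160 FPKM in wild type and 600, 516 and 620 FPKM in the tumors. Cx3cr1, the fractalkine receptor gene, stood at 2.55 and 2.68 FPKM in the control libraries, against 71.9, 61.2 and 76.0 FPKM in the tumors (4.78, SE 0.21, adjusted p = 0.0029), and Tmem119 rose by 1.94 (SE 0.20, adjusted p = 0.0068). The microglia transcription factor gene Sall1 had 6 and 9 fragments in wild type and 1, 77 and 0 in the tumors and was not tested. Monocyte markers rose at 5 of 8 (median 2.57), with the chemokine receptor gene Ccr2 at 0.969 and 0.923 FPKM in the control libraries, against 79.6, 26.2 and 58.1 FPKM in the tumors (5.91, SE 0.64, adjusted p = 0.0071) and Ly6c2 at 4.30 (SE 0.34, adjusted p = 0.0046). Unlike most of the 37 genes, Ccr2 was highest in tumor library 1.

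Dendritic cell markers rose at 4 of 8 (median 2.45), with Batf3 at 4.65 (SE 0.58, adjusted p = 0.0086) and Itgae at 3.40 (SE 0.47, adjusted p = 0.01). T cell markers rose at 7 of 8 (median 4.16), with Cd3g at 4.38 (SE 0.54, adjusted p = 0.0085) and Cd2 at 3.94 (SE 0.63, adjusted p = 0.014), and their summed level was 5.16 and 3.92 FPKM in wild type and 35.1, 36.1 and 83.5 FPKM in the tumors. B cell markers rose at 4 of 5 (median 2.42), with Cd79b at 2.32 (SE 0.49, adjusted p = 0.025) and Blk at 2.84 (SE 0.71, adjusted p = 0.038), and without tumor library 1 at 1. The part of these lymphocytes in the Ptprc and Laptm5 values was not tested. Photoreceptor markers fell at all 8 loci, with Sag at −6.84 (SE 0.38) and Pdc at −9.85 (SE 0.53) and adjusted p = 0.0029 for both.

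**Figure D4:**
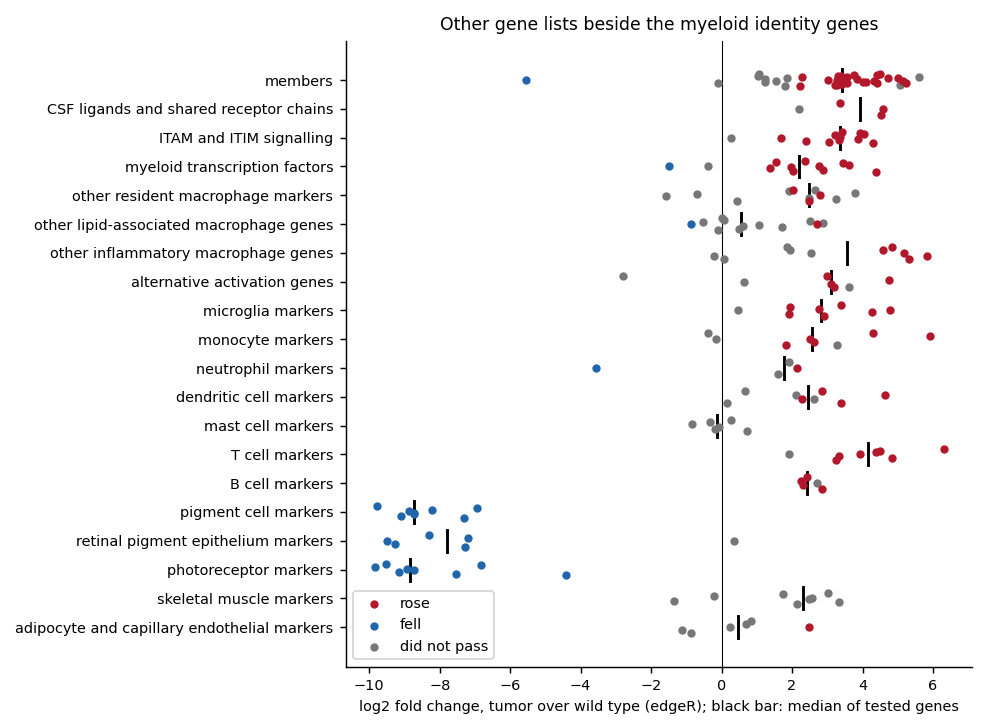
Log2 fold change of tumor over wild type (edgeR) for the tested genes of the 19 lists outside the 37 members, 1 point per gene, coloured by outcome of the test, with a black bar at each list's median. Marker lists of immune cell types other than mast cells have medians above 1, while pigment, retinal pigment epithelium and photoreceptor lists lie near −8.

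The order of levels among the 37 genes differed between the groups. In wild type the highest FPKM belonged to Apoe (7990 ± 579, SD, n = 2), Gpnmb (704 ± 13.4), Lyz2 (353 ± 20.4), Csf1r (91.3 ± 7.35) and Tyrobp (89.6 ± 9.24), of which Csf1r and Tyrobp did not differ beyond their spread. In the tumors they belonged to Apoe (7250 ± 2270, SD, n = 3), Lyz2 (3320 ± 2810), Tyrobp (837 ± 432), Fcer1g (338 ± 119) and Lyz1 (273 ± 237). Ranges of neighbours in that tumor order overlapped across libraries. Within every tumor library, though, Apoe was above Lyz2, Lyz2 above Tyrobp and Tyrobp above Fcer1g. Fcer1g and Lyz1 changed order, at 324, 226 and 464 FPKM against 188, 90.1 and 540 FPKM in tumor libraries 1, 2 and 3. Csf1r, level with Tyrobp in wild type, was below it in every tumor library.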

How the data were processed

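Trizol extraction of fresh-frozen tissue and an Illumina TruSeq RNA kit gave the libraries, per the labels' protocols. The submitters' processing notes name build mm10 and the tools TopHat2 2.0.9, Cufflinks 2.2.1 and Cuffdiff. Which tool did what, the annotation and the strandedness are not given, so reads of overlapping or antisense genes cannot be told apart. Per the file headers, the deposited table has an unscaled estimated count of fragments per locus and library beside an FPKM, which the authors scaled for length and depth. It has 24768 loci; 1627 without a gene name (1.52% to 4.37% of fragments per library) were left out, 384 named loci carry several names, and 3 estimates were marked as failed and used as they stand. At least 96.8% of estimated counts per library were whole, and all were rounded. The authors' group FPKM equalled the library mean to within 1% at 100% of loci above 1 FPKM.

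Library numbers begin with 0 in the table but with 1 in the labels, so they only name libraries. Chi-square over degrees of freedom, from loci of at least 20 fragments, was 5.43 for the wild-type pair and 102 to 129 for tumor pairs, so all 5 were kept. Under R 4.3.3, edgeR 4.0.16 (filterByExpr at its minimum count of 10, TMM, quasi-likelihood F-test) compared the groups without covariates, and p-values, two-sided, were adjusted by Benjamini-Hochberg over all 15241 tested loci. "Rose" and "fell" mean an adjusted p under 0.05, from edgeR unless another tool is named. The SE of a log2 fold change is its size over the square root of F. A fold is 2 to the power of the log2 fold change that edgeR fitted, and differences in times are ratios of FPKM or, where stated, of fragments. The test was checked on data simulated with the same spread in both groups, so this check does not cover the unequal spread of these groups. Alternatives were DESeq2 1.42.0, limma 3.58.1 on log2(FPKM + 1) and log2(FPKM + 0.1), other scalings and filters, a replicate block and each library left out. The members and the 19 further lists were chosen with earlier results of these data known, so they are no independent evidence. All members were described. Of each further list, up to 2 loci past the test with the smallest p were named or, where none passed, up to 2 with the highest level. One gene that this rule names is not reported here. Pf4, Il34, Csf2rb, Csf2, Csf3, Blnk, Bhlhe40, Adipoq, Kdr, Cldn5, Acod1, Retnla, Sall1, Elane, Mpo and Hmgxb3 were added with their values known. Intervals for low counts are exact at 95% and cover counting error only. Shared stretches were counted between annotated transcripts (GENCODE).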

Additional observations from a re-analysis of the deposited data

How the results depend on the processing

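With 1 wild-type library left out, edgeR called 0 of all loci (4085 or 3996 at an unadjusted p under 0.05) and so 0 members or list genes; the lone library is then assumed to vary like the tumors. DESeq2 called 2861 loci without wild-type library 1 and 2831 without library 2. Over all leave-outs edgeR called 0 to 6144 loci, 0 to 28 rising and 0 to 1 falling members. Without tumor library 1, 22 members rose: Lyz1, Lyz2, Clec4n and Clec7a no longer passed and Arg1 did. Without tumor library 2, 28 rose, with Csf1r, Cd163 and Cd36 added, and without tumor library 3, 27, with Csf1r and Cd68 added. With library size alone 26 rose (Csf1r added, adjusted p = 0.043). On log2(FPKM + 1) with no filter 18 rose (Mrc1, Lyz1, Lyz2, Trem1, Clec4n, Clec7a and Ms4a7 did not pass), and 41.5% of all called loci were rises, against 54.8% in edgeR. RLE size factors, no filter on counts, and limma with the filter at either pseudocount gave 25. The table's numbers do not pair the samples (correlations of deviations 0.013 and 0.027); with them as a replicate block 3067 loci passed, 24 members rose and 1 fell, and Trem1 no longer passed.

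For the lists, leave-outs gave these ranges of rising genes: CSF 0 to 4, ITAM 0 to 11, transcription factors 0 to 10, resident 0 to 7, lipid-associated 0 to 3, inflammatory 0 to 7, alternative 0 to 5, microglia 0 to 7, monocyte 0 to 6, neutrophil 0 to 2, dendritic 0 to 6, T cell 0 to 8, B cell 0 to 4 and adipocyte 0 to 1. Falling genes ranged over 0 to 2 for transcription factors, lipid-associated and muscle, 0 to 1 for resident, alternative, neutrophil and adipocyte, 0 to 8 for pigment and photoreceptor and 0 to 5 for retinal pigment epithelium. Under limma on log2(FPKM + 1) with no filter, risers were CSF 1, transcription factors 6, resident 0, alternative 1, T cell 3 and B cell 0, and lipid-associated fallers 0. With the filter, alternative fallers were 1 and B cell risers 2, and at a pseudocount of 0.1 lipid-associated risers 2. DESeq2 gave resident 8, lipid-associated 5, inflammatory 8, neutrophil 2, dendritic 7 and muscle 2 risers and 1 adipocyte faller. DESeq2 without wild-type library 1 gave neutrophil 0 and 0 and B cell 1, and without library 2 lipid-associated 2, neutrophil 0 and 0 and B cell 0. Library size alone gave lipid-associated 2, no filter B cell 2, and the replicate block resident 1, lipid-associated 3, neutrophil 0 and 0, dendritic 2 and B cell 0. The cause of these moves was not tested.

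Some signs turned. No named gene past the edgeR test changed the sign of its own log2 fold change, but ratios of Mrc1 and Trem2, which rose, changed sign with the reference gene. The Tpsb2 log2 fold change was 0.12 in DESeq2 without wild-type library 1, 0.11 with the block and −0.39 to 0.11 over leave-outs; Apoe ran from −0.38 to 0.05 and Mylpf from −0.07 to 2.99. Ratios relative to Ptprc were −0.93 for Mrc1, −2.11 for Trem2 and −1.56 for Nos2, and over leave-outs the ratio to Csf1r ran from −0.77 to 0.28 for Cd163 and from −1.03 to 1.22 for Arg1. Depth limits Marco, Trem1, Clec4e and Nos2 in wild type, where each had few fragments.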

Other observations

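Muscle and mast cell genes, for which 0 loci passed in edgeR and 0 had an unadjusted p under 0.05, gave these values. DESeq2 called 2 muscle genes and 0 mast cell genes. Among the skeletal muscle markers, Mylpf stood at 134 and 135 FPKM in the controls, against 1930, 107 and 139 FPKM in tumor libraries 1, 2 and 3, and Acta1 at 99.8 and 89.5 FPKM against 1920, 126 and 191 FPKM. Tumor library 1, which carried the muscle signal, was also the library with the lowest Arg1 level; the relation was not tested. Among the mast cell markers, Tpsb2 stood at 8.27 and 6.19 FPKM in the controls, against 6.06, 9.13 and 4.85 FPKM in the tumors, and Mcpt4 at 7.41 and 5.63 FPKM against 4.57, 5.55 and 4.88 FPKM.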
